A study of Mus musculus and Homo sapiens with 16 samples.

Results

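KLF5 occupancy in embryonic mouse skin epithelium of stage E17.5 was read from 1 ChIP-seq peak list and set beside gene expression in 3 RNA-seq libraries of the same stage. All 6472 KLF5 peaks were taken, out of 66532 peaks in the KLF5, H3K27ac and ATAC-seq lists of this stage. The summit of each peak, the base of strongest enrichment, was assigned to the gene with the nearest start (transcription start of the annotated gene). A gene counted as occupied when at least 1 summit assigned to it lay within 5 kb of its start, on either side. By this rule 3117 of 39179 annotated genes were occupied and 36062 were not. The comparison asked how the level of occupied genes in heterozygous epithelium stood against that of all other genes.

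The study addressed the role of KLF5 in the sphingolipids and the barrier of skin. All samples used here were C57BL/6 embryonic skin epithelium at E17.5: dispase freed the epidermis, trypsin broke it into single cells, and the sort kept cells that carried integrin alpha 6 and lacked both CD45, the leukocyte surface protein, and the dead-cell stain DAPI. RNA came from 3 libraries with the genotype Klf5+/- and 3 labelled Klf5-/-. KLF5 ChIP-seq, H3K27ac ChIP-seq and ATAC-seq had 1 sample each, with wild type as the genotype, so occupancy and expression were measured in different genotypes; the ATAC-seq title carries Het although its genotype is given as wild type. The labels name no Cre driver, do not describe the Klf5 alleles, and do not say whether the libraries came from separate embryos, and a p-value here stands against a library spread that may be technical.

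KLF5 is a zinc-finger transcription factor of the Krüppel-like family, whose members bind GC-rich and CACCC-type boxes in DNA, often close to gene starts. In stratified epithelia KLF5 is known from the proliferating basal layer, the cells that rest on the basement membrane and carry integrin alpha 6. Acetylation of lysine 27 on histone H3 (H3K27ac) marks active promoters and enhancers, and ATAC-seq reads out open chromatin. The barrier of the epidermis rests on cornified cells and on lipids rich in ceramides, which are built from serine and fatty acids by serine palmitoyltransferase and the ceramide synthases.

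The Klf5+/- libraries held 34965243 to 46445546 counts on genes and the libraries labelled Klf5-/- 34486898 to 38597737. A count of 3, taken as the detection limit, stood for 0.0646 to 0.0858 CPM, the count scaled to library size, in the Klf5+/- libraries. Itga6, the gene of the sorted integrin, stood at 400, 377 and 352 CPM in the Klf5+/- libraries, and Ptprc, which encodes CD45, at 8.25, 4.68 and 11.0 CPM. Summed red cell markers ran from 16.5 to 1103 CPM of the library totals in the Klf5+/- libraries, and summed skeletal muscle, liver and endothelial markers came to at most 8.99 CPM each. Suprabasal transcripts were abundant in cells sorted for a basal integrin: the suprabasal and cornified envelope list summed to between 63776 and 77697 CPM. The third library labelled Klf5-/- correlated more closely with the Klf5+/- libraries (mean r of 0.991 across 15092 genes) than with its own group (0.989), whereas the other 5 libraries were closest to their own group.

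Klf5 itself, on chr14:99298691-99313405 of GRCm38 (plus strand), was occupied itself, with a summit 121 bases upstream of its start and a fold enrichment of 3.78 over the local background. It was read at 176, 193 and 160 CPM in the Klf5+/- libraries, a mean of 176 ± 16.8 CPM (SD, n = 3). The libraries labelled Klf5-/- held as many Klf5 reads, with 6934, 7211 and 6501 counts against 8376, 6609 and 6624. By edgeR's quasi-likelihood test the log2 fold change was 0.02 with an SE of 0.10 (adjusted p = 0.982). The count therefore does not check the genotype labels, and the labels do not say which part of the gene was deleted.

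The sequences under the summits of a few occupied genes show what KLF5-occupied promoters looked like in this epithelium. The set holds the subunits Sptlc1 and Sptlc2 of serine palmitoyltransferase, the ceramide synthase Cers3 and the regulator Ormdl2. It also holds the cholesterol enzymes Hmgcs1 and Lss, the family members Klf3 and Klf11, and Jun of the AP-1 group. They were chosen after the summits were known, among members whose summit fell inside a RefSeq promoter window (GRCm38.p6, 250 bases before to 50 after the gene start). Each runs 5′ to 3′ on the strand of the gene, reaches up to 50 bases to each side of the summit, and stops at the window's edge or the RefSeq gene start where that is closer. Capitals mark every CCCACCC (the CACCC-type box) and CCCGCCC (the GC box), on either strand, so that GGGTGGG and GGGCGGG are the same boxes read from the other side.
Sptlc1, chr13:53377431-53377531, minus strand: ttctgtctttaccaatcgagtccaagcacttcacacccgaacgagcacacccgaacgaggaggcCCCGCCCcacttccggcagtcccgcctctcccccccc
Sptlc2, chr12:87388356-87388420, minus strand: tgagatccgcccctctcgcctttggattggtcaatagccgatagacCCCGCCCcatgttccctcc
Cers3, chr7:66743430-66743503, plus strand: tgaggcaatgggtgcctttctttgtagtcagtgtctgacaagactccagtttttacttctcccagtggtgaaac
Ormdl2, chr10:128821630-128821729, minus strand: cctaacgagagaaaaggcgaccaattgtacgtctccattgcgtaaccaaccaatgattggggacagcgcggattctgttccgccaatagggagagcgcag
Hmgcs1, chr13:119690247-119690347, plus strand: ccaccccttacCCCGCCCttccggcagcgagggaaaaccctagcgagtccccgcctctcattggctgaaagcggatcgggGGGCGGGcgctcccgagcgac
Lss, chr10:76531525-76531604, plus strand: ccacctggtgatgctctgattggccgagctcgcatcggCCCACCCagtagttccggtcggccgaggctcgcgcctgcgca
Klf3, chr5:64803332-64803432, plus strand: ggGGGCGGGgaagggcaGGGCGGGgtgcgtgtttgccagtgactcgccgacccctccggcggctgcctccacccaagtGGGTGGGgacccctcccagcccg
Klf11, chr12:24651121-24651201, plus strand: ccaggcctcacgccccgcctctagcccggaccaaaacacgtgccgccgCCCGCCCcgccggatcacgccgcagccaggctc
Jun, chr4:95052225-95052325, minus strand: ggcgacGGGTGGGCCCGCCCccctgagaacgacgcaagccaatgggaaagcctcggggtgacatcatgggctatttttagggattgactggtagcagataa

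Klf3 and Jun held both kinds of box around their summits, Sptlc1, Sptlc2, Hmgcs1 and Klf11 the GC box, and Lss the CACCC-type box. The stretches of Cers3 and Ormdl2 held neither, which says only that these letters were not in these windows. Over all 32817 RefSeq promoter windows, the GC box CCCGCCC occurred on either strand in 25.6%, and over the 1869 windows that held a KLF5 summit in 67.3%. The CACCC-type box CCCACCC occurred in 17.48% of all windows and 25.2% of those with a summit. The 6768 windows that had both an ATAC and an H3K27ac peak at the start but no KLF5 summit held the GC box in 50.1% and the CACCC-type box in 19.4% of cases, against 67.5% and 24.8% of the 1767 such windows with a summit.

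Promoters with a summit were GC-rich, with a median of 64.3% G and C against 52.7% over all windows. Among windows with both chromatin marks and a GC content of 60 to 70%, the GC box occurred in 71.4% of 908 windows with a summit and 56.9% of 2701 without. Its density in windows with a summit was 5.01 matches per 1000 bases within 25 bases of the summit on either side, 5.54 and 5.55 in the next steps of 25 bases outward, 4.48 and 4.75 farther out, and 3.50 at 150 to 249 bases, so it was not highest at the summit itself. Other boxes were searched the same way on both strands. CCAAT occurred in 47.4% of windows with a summit and 37.4% of all windows. The ETS site CCGGAAG occurred in 20.2% and 8.86%, the AP-1 site TGANTCA in 5.40% and 7.81%, and the TATA box TATAAA in 4.98% and 13.6%. Among windows with both marks, with against without a summit, the shares were 47.7% and 36.5% for CCAAT, 20.8% and 23.1% for CCGGAAG, 5.21% and 4.06% for TGANTCA, and 4.92% and 5.41% for TATAAA, so that the differences for the ETS and AP-1 sites turned and that for the TATA box shrank. A match is a description of the letters and does not mark a bound site.

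KLF5 summits fell into a promoter set and a distal set of similar size. Of the 6472 summits, 3287 (50.8%) lay within 5 kb of the nearest gene start and 2554 (39.5%) within 1 kb, while 3178 (49.1%) lay farther away and 7 were on sequences with no annotated gene. Within 5 kb the median position was 65 bases upstream of the start, with quartiles 206 bases upstream and 112.5 bases downstream. The 250 bases before the start held 1332 summits and the 250 bases after it 620, whereas the next 250 bases outward held 213 upstream and 109 downstream. Fold enrichment was alike in both sets, with a median of 4.02 within 5 kb and 3.96 beyond.

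**Figure D1:**
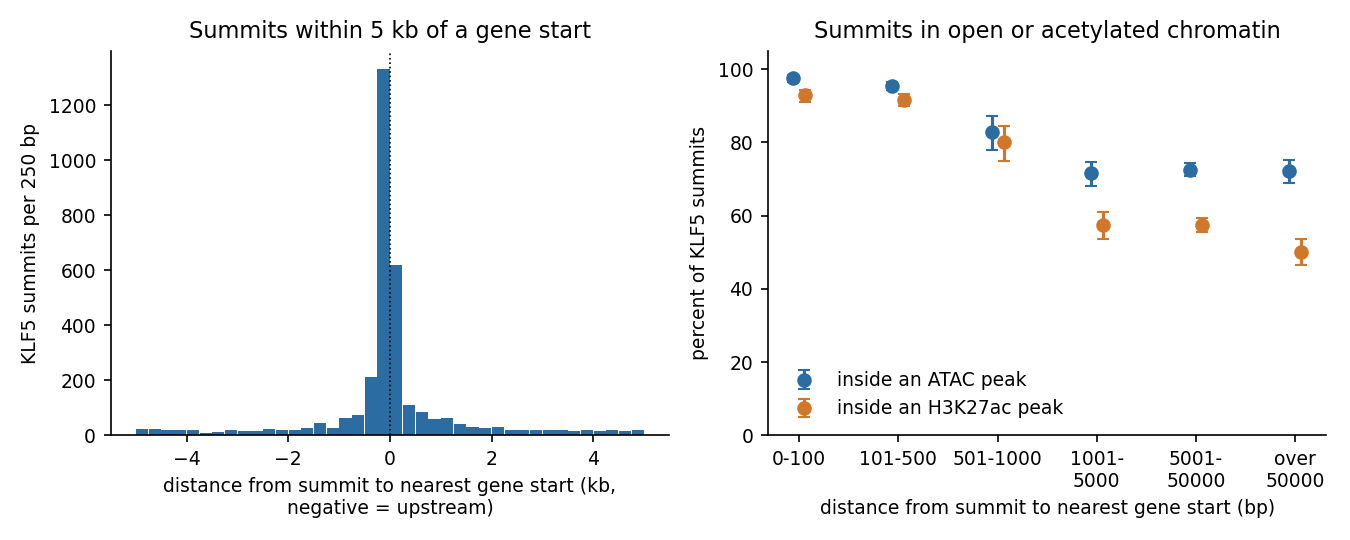
Left, KLF5 summits per 250 bases by signed distance in kb from the nearest gene start, with a peak of 1332 summits just upstream of it. Right, the percent of summits inside an ATAC peak (blue) or an H3K27ac peak (orange) by distance class in bp, with exact 95% binomial intervals; both shares fell from over 90% within 500 bases to 72.1% and 50.1% beyond 50 kb.

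Most summits lay in chromatin that was open and acetylated in the matching samples. ATAC peaks held 5252 summits, 81.1% (exact 95% binomial interval 80.2 to 82.1%), and H3K27ac peaks 4509, 69.7% (68.5 to 70.8%); these intervals cover counting error only. Both marks were present at 62.2% of summits and neither at 11.4%. Of summits within 1 kb of a start, 94.9% were in an ATAC peak and 90.8% in an H3K27ac peak, against 72.4% and 55.6% of summits beyond 5 kb. The shares also grew with fold enrichment: across 4 groups of equal size from lowest to highest fold, 73.7, 79.7, 83.7 and 87.5% of summits were in ATAC peaks and 60.6, 62.9, 73.2 and 82.1% in H3K27ac peaks. The share of summits within 5 kb of a start had no such order, at 49.7, 49.3, 53.0 and 51.1%. Seen from the other side, 24.1% of the 18155 H3K27ac peaks and 12.2% of the 41905 ATAC peaks held a KLF5 summit.

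The strongest peaks lay far from gene starts or at genes with few or no counts, with Brox as the first expressed gene. The highest folds were 20.1 and 19.1 on the unplaced sequences JH584304.1 and GL456389.1, followed by 18.9 for chr9:35305089-35305642, whose nearest start, Gm5614, lay 23577 bases away. Of the genes nearest to the 10 strongest summits within 5 kb of a start, 4930468A15Rik, Gm10722, Gm10720 and Gm10715 had no count in any Klf5+/- library and Gm11668 had 1 in each. Gm10722, Gm10720, Gm10715 and Gm10717 lie side by side on chromosome 9, between bases 3000922 and 3038316. Whether reads under these strongest summits had a single place in the genome was not checked. Of the expressed genes in this set, Brox had a summit 2076 bases upstream with a fold of 12.6 and stood at 78.6, 83.4 and 78.0 CPM.

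Kmt2a, Kat6a and Gys1 had strong summits close to the start. Kmt2a, a histone H3 lysine 4 methyltransferase, had a summit 121 bases upstream (fold 8.41) and was read at 87.8, 60.7 and 59.3 CPM, highest in replicate 1. Kat6a, a histone acetyltransferase, had one 173 bases upstream (fold 7.84) and stood at 116, 114 and 104 CPM. Gys1, the muscle-type glycogen synthase, had one 373 bases upstream (fold 8.36) and stood at 35.7, 29.2 and 30.3 CPM. Single genes seldom held several summits: 2952 had 1, 160 had 2 and 5 had 3. The 5 were the uncounted Gm10717 and the expressed genes Tmem125, Atp6v1b1, Dpp9 and Gsk3a. Gsk3a, a kinase that phosphorylates glycogen synthase, stood at 61.9 ± 10.0 CPM (SD, n = 3), and Atp6v1b1, a proton pump subunit, at 69.7, 43.7 and 36.5 CPM.

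Occupied genes were expressed more often and at a higher level than other genes. Over all genes, 7.96% were occupied, and over the 12688 genes with a mean of at least 1 CPM in the Klf5+/- libraries, called expressed here, 20.2% were (2566 genes). Of the occupied genes, 82.5, 82.3 and 82.6% reached 1 CPM in the 3 libraries, a mean of 82.5 ± 0.193% (SD, n = 3), against 28.0 ± 0.268% of the other genes. No count in any library was found for 190 occupied genes (6.10%) and for 17334 others (48.1%). Genes are not replicates of a condition and there was 1 KLF5 peak list, so no test across genes was made, and the errors give the spread of the RNA libraries alone.

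Among expressed genes the median level was 52.6, 52.8 and 51.5 CPM for occupied genes, a mean of 52.3 ± 0.721 (SD, n = 3), and 24.6 ± 0.158 CPM for the others. Per kb of exon, the scale used for all levels compared between genes, the medians were 12.7, 12.6 and 12.4 CPM per kb against 6.58, 6.54 and 6.54, so the median was higher for occupied genes in every library. The log2 ratio of the medians per kb was 0.94 ± 0.016 (SD, n = 3), a ratio of 1.92. The distributions overlapped widely: the middle 50% of occupied expressed genes lay between 5.49 and 29.7 CPM per kb and that of the others between 2.30 and 16.4. Occupied genes, which include mt-Cytb and mt-Nd1 of the mitochondrial genome, took 36.7, 36.7 and 35.7% of all counts. Restricted to genes that RefSeq lists as protein-coding, 94.4 ± 0.183% of occupied and 51.3 ± 0.355% of other genes reached 1 CPM, and the ratio of medians per kb was 1.87.

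**Figure D2:**
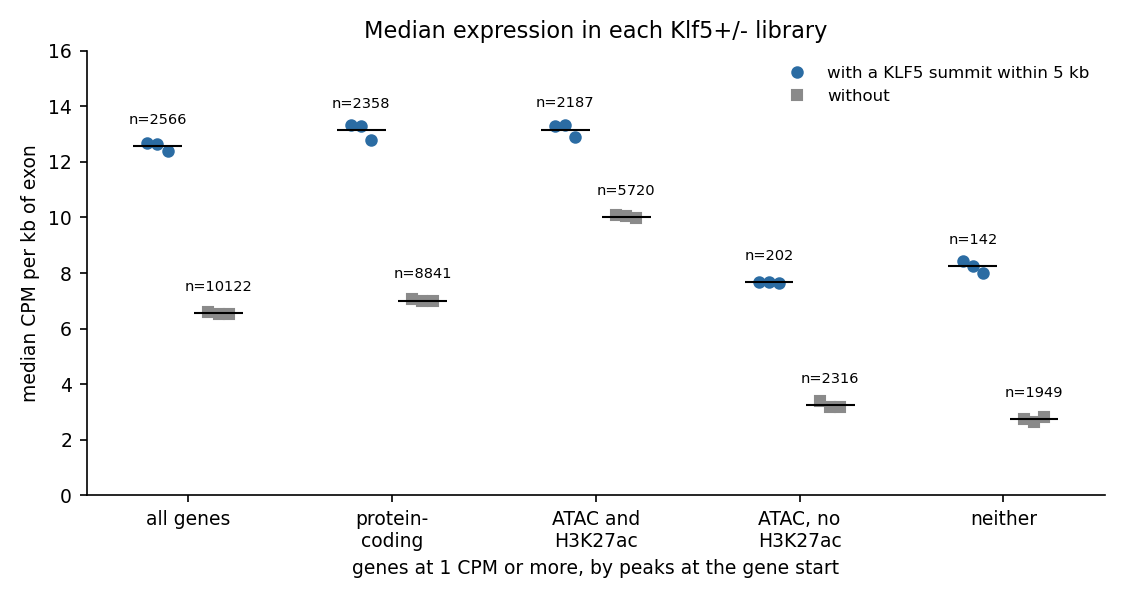
Median CPM per kb of exon in each of the 3 Klf5+/- libraries (points) and their mean (line), for expressed genes with (blue) and without (grey) a KLF5 summit within 5 kb: all genes, protein-coding genes, and genes classed by the peaks that overlap 500 bases to either side of the start. Occupied genes stood higher in each class shown, by 1.31-fold where both marks were present and 3.01-fold where neither was.

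Among genes with the same chromatin at the start the ratio differed by class. It was below the 1.92 of all expressed genes where both marks were present. In the classes with ATAC alone and with neither mark it was above. Genes with an H3K27ac but no ATAC peak were not compared as a class. Where both an ATAC and an H3K27ac peak overlapped the 500 bases on either side of the start, the median was 13.2 CPM per kb for 2187 occupied genes and 10.0 for 5720 others, a ratio of 1.31 (log2 0.39 ± 0.019, SD, n = 3). With ATAC but no H3K27ac peak it was 7.67 for 202 occupied and 3.25 for 2316 other genes, a ratio of 2.36. With neither mark it was 8.24 for 142 and 2.74 for 1949, a ratio of 3.01. In each of these classes and each library the occupied genes had the higher median. The marks were themselves more frequent at occupied genes: 93.1% of expressed occupied genes and 79.4% of the others had an ATAC peak at the start, and 86.6% and 57.9% an H3K27ac peak.

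Occupancy became more frequent with expression. It was 1.08% among genes with no count, 4.03% among counted genes under 1 CPM, and 6.38, 12.9, 13.4, 15.9, 19.1, 23.5, 22.3, 27.8, 27.3 and 33.6% across 10 classes of expressed genes from the lowest to the highest level per kb. Among genes with both marks at the start the same 10 classes gave 16.2, 26.4, 21.1, 21.3, 25.1, 28.6, 26.9, 31.8, 29.3 and 37.0%, a narrower span that did not rise at every step.

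**Figure D3:**
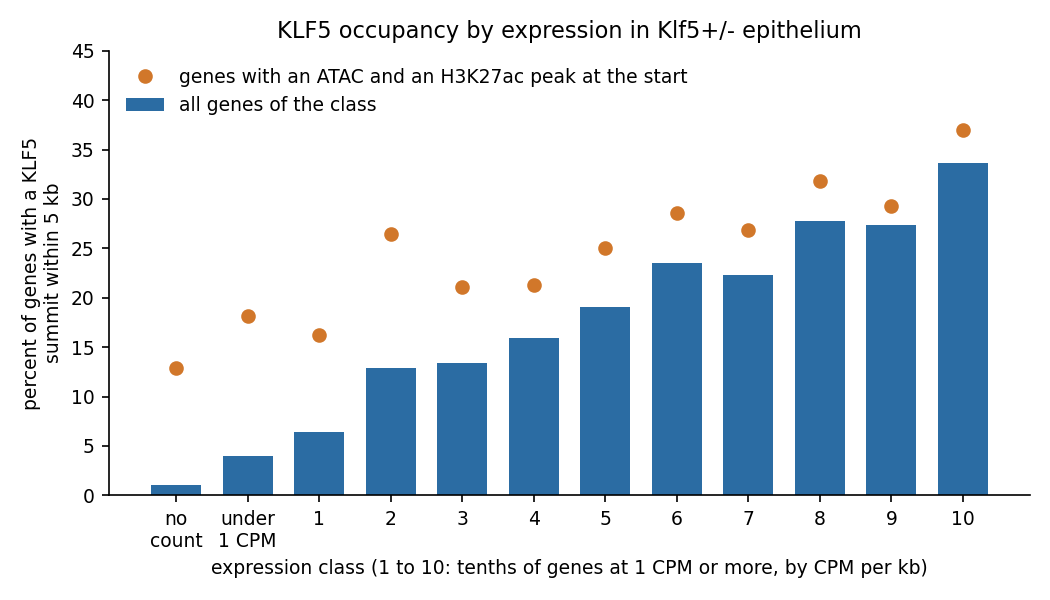
Percent of genes with a KLF5 summit within 5 kb (bars) by expression in the Klf5+/- libraries, from no count to the highest of 10 classes of expressed genes by CPM per kb; orange points give the same share among genes with an ATAC and an H3K27ac peak at the start. The bars run from 1.08% to 33.6%.

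The strength and position of the summit told little about the level once a gene was expressed. Across 2566 expressed occupied genes, Spearman's rho between the fold of the strongest summit and CPM per kb was -0.006, and rho between its distance from the start and CPM per kb was -0.037; genes are not independent and share libraries, so these are descriptions. In 3 groups of similar size by fold, the median levels were 13.0, 12.1 and 12.3 CPM per kb. By distance of the strongest summit, 89.9% of genes reached 1 CPM where it lay within 100 bases, 91.7% from there to 500 bases, 79.5% to 1000 and 55.5% to 5000, while the medians of the expressed genes were 12.5, 12.8, 10.9 and 12.4 CPM per kb. Unoccupied genes that were the nearest start of a summit 5 to 50 kb away had 47.0% at 1 CPM and a median of 8.66. Genes that were the nearest start of no summit, at whatever distance from one, had 26.95% and 6.35. At the 5 kb limit, the 81 genes with a summit in the last 500 bases inside it had 56.8% at 1 CPM and a median of 13.2 CPM per kb, and the 70 with one in the first 500 bases outside it had 54.3% and 17.0.

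The assignment to the nearest start left out many neighbours. Another 1173 genes, 606 of them expressed, had a start within 5 kb of a summit that lay nearer to a different start, and 21 of these were members of the gene lists below. The cholesterol enzyme gene Mvk, for example, started 118 bases from a summit that was assigned to Mmab, 92 bases away on the other side. Sphk2, a sphingosine kinase gene, started 2610 bases from the summit of the ribosomal protein gene Rpl18. The rule also used a single start per gene, so a summit at another promoter of the gene could be missed. Dst, Dmkn, Sp2, Sgms1 and Srebf1, named after their values were seen, counted as unoccupied. Each nevertheless had a summit inside a RefSeq promoter window, at folds of 3.65 to 5.16. Shares of the lists and the words without a summit hold for the single start only. Of the 190 occupied genes with no count, 21 were protein-coding by RefSeq, and 39 (20.5%) had the start of an expressed gene within 5 kb, against 5.69% of uncounted genes without a summit. The uncounted genes with the strongest summits outside the Gm and Rik series were U2, Igll1, AU016765, Tmem210 and RP23-264P8.1, whose summits lay 1256 to 3846 bases from the start.

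Keratins stood among the highest occupied genes. The highest value per kb, 16987 ± 1455 CPM per kb (SD, n = 3), belonged to Gm23935, a gene so short that its level per kb compares poorly with the others. Krt1, the type II keratin of suprabasal cells (chr15:101845428-101850786, minus strand), stood at 36098, 38713 and 30632 CPM, or 14428 ± 1693 CPM per kb (SD, n = 3). Its summit lay 4986 bases upstream, just inside the window, with a fold of 3.10. Krt5 (chr15:101707070-101712891, minus strand), the type II keratin of basal cells, had its summit 3 bases upstream with a fold of 2.73 and stood at 13776, 14114 and 11701 CPM, or 6051 ± 599 CPM per kb. Krt14, its type I partner, had a summit 1309 bases upstream and stood at 3827 ± 322 CPM per kb. Lgals7 (galectin 7) stood at 4607 ± 537 CPM per kb and Krtdap, a keratinocyte differentiation-associated gene, at 3421 ± 527. Replicate 3 had the lowest Krt1, Krt5 and Krt14 of the 3 libraries.

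Genes without a summit reached similar levels. Krt10, the type I partner of Krt1, stood at 26304, 29670 and 23718 CPM, or 12734 ± 1431 CPM per kb (SD, n = 3), with no summit within 5 kb and neither an ATAC nor an H3K27ac peak at its start. Stfa3, a stefin-type protease inhibitor with near-identical copies whose counts are therefore uncertain, stood at 7321 ± 1005 CPM per kb, and Eef1a1, the translation elongation factor, at 4013 ± 439. The occupied list also held mt-Cytb and mt-Nd1, 2 of the genes on the mitochondrial genome, where 5 peaks lay.

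**Figure D4:**
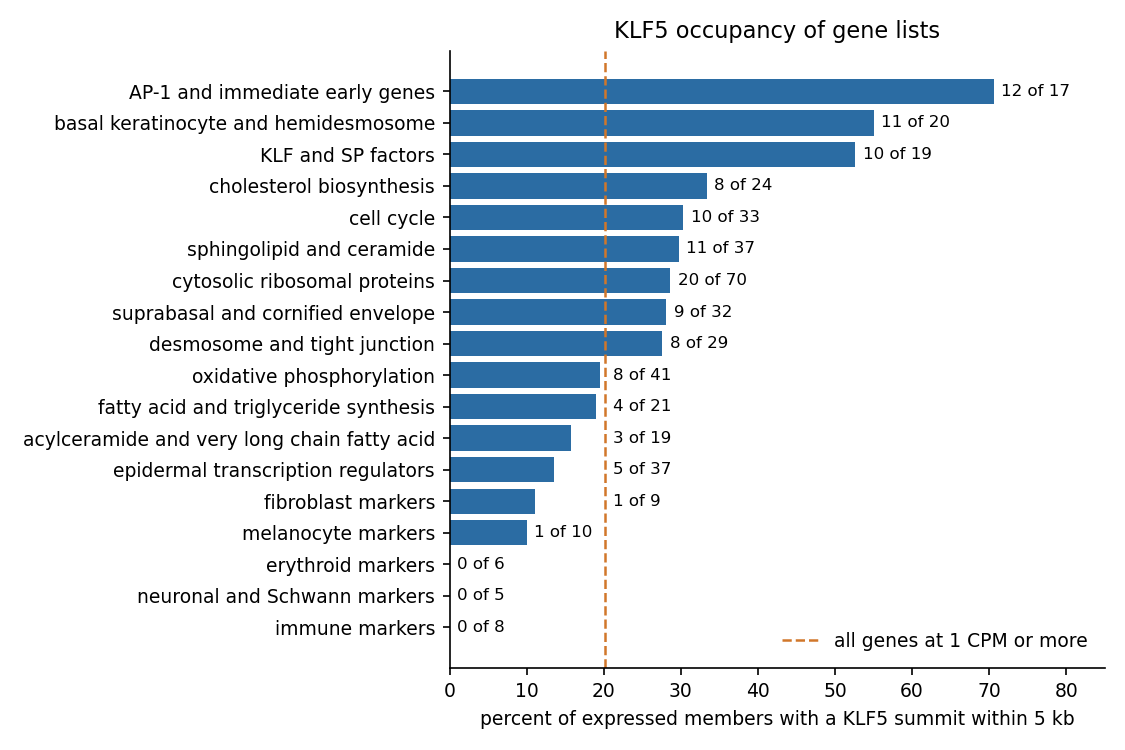
Percent of expressed members with a KLF5 summit within 5 kb in each gene list with at least 5 expressed members; the counts stand beside the bars, and the dashed line marks the 20.2% of all expressed genes. AP-1, basal keratinocyte and KLF/SP lists stand at 70.6, 55.0 and 52.6%, and immune, neuronal and erythroid markers at 0. The line takes no account of the expression level of a list, with which occupancy rose.

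Members of the KLF and SP family, which share the DNA boxes shown above, were often occupied themselves. Of 19 expressed members 10 were occupied, 52.6% against 20.2% of all expressed genes, and among members with both marks at the start 10 of 15, against 27.7% of all such genes. The occupied expressed members had a median of 12.3 CPM per kb and the others 1.98. Klf4, a factor of suprabasal differentiation, stood at 419, 478 and 358 CPM (137 ± 19.8 CPM per kb, SD, n = 3), with a summit 59 bases upstream at a fold of 4.17. Klf3, a repressor of the family whose sequence is given above, stood at 88.0, 82.7 and 73.9 CPM with a fold of 5.16. Sp1, a widely expressed activator, stood at 177, 155 and 164 CPM and had its summit 235 bases upstream.

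The other occupied members were Klf13 (13.1 CPM per kb), Klf16 (11.4), Klf10 (9.07), Klf11 (3.04), Klf9 (1.93) and Sp4 (1.81), the last with the highest fold of the family, 5.28. Counting the unexpressed Klf1, 8 of the family's 11 occupied members had their strongest summit within 500 bases of the start. Klf1, the red cell factor, had a summit 1508 bases inside the gene but averaged 0.621 CPM, under the expression limit. The highest members without a summit of their own were Sp3 at 33.8 ± 1.86 CPM per kb and Klf6 at 25.4 ± 2.79. Sp3 started 983 bases from a summit that was nearer to 1700011J10Rik.

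Occupied sphingolipid genes covered the first enzyme of ceramide synthesis, its regulators and several later steps. Of 37 expressed members of the list 11 were occupied (29.7%, against 20.2% of all expressed genes). The median of the 37, 9.95 CPM per kb, fell in expression class 6, where 23.5% of genes were occupied. All 11 were among the 25 members with both marks at the start (44.0%, against 27.7% of all such genes). The strongest summit was within 500 bases of the start in 10 of the 11, at folds of 2.90 to 4.797. Serine palmitoyltransferase joins serine to palmitoyl-CoA, and its subunits Sptlc1, Sptlc2 and Sptssa all had a promoter summit, 116 and 15 bases upstream and 31 bases downstream. Sptlc1 stood at 91.3, 91.2 and 77.7 CPM, Sptlc2 at 73.1, 81.1 and 87.6 CPM, and Sptssa at 241, 306 and 350 CPM. The alternative subunit Sptlc3 had no summit and stood at 33.1 ± 1.41 CPM per kb, beside 33.5 ± 3.04 for Sptlc1 and 9.95 ± 0.896 for Sptlc2 (SD, n = 3).

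The ORMDL proteins hold this enzyme in check: Ormdl2 and Ormdl3 were occupied and Ormdl1 was not. Ormdl3 had a pair of summits and stood at 58.8, 57.5 and 59.8 CPM. Downstream, Cers3, the ceramide synthase for very long chains in the epidermis, had a summit 24 bases upstream and stood at 69.7, 77.8 and 80.8 CPM. Degs1, the desaturase that completes ceramide, had one 47 bases upstream and stood at 129, 130 and 135 CPM. Cers5 (7.12 CPM per kb) was occupied too, whereas Cers2 (5.93) and Cers6 (3.803) were not. Among genes that break sphingolipids down, Psap, the precursor of the saposins, stood highest at 235 ± 20.9 CPM per kb, with a summit 62 bases inside the gene. Sgpl1, the sphingosine-1-phosphate lyase, had its summit 3108 bases upstream, and Smpd3, a neutral sphingomyelinase, was occupied 62 bases upstream at only 0.936 ± 0.319 CPM per kb.

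**Figure D5:**
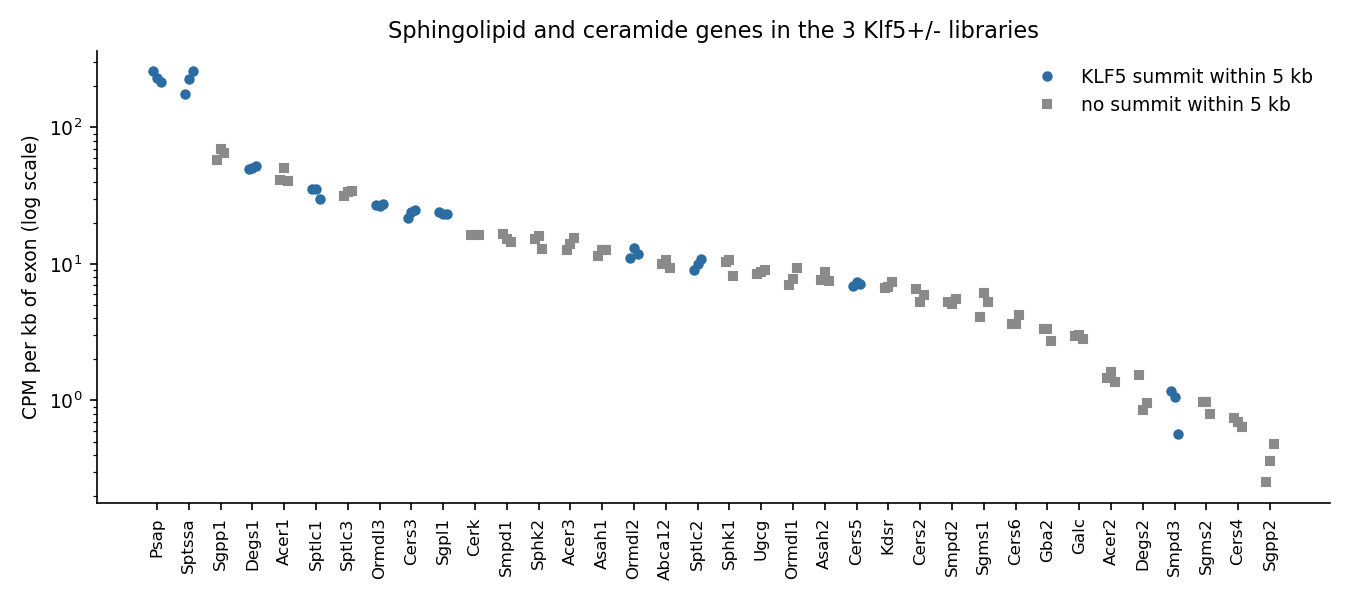
CPM per kb of exon (log axis) of 36 of the 37 expressed sphingolipid and ceramide genes in the 3 Klf5+/- libraries, ordered by level; blue circles mark genes with a KLF5 summit within 5 kb and grey squares genes without. Occupied genes ran from Psap at 235 to Smpd3 at 0.936 CPM per kb and were interspersed with unoccupied ones.

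Levels did not separate occupied from unoccupied sphingolipid genes. The medians were 23.5 and 8.00 CPM per kb, but Sgpp1, a sphingosine-1-phosphate phosphatase (64.2 ± 5.89 CPM per kb, SD, n = 3), and Acer1, an alkaline ceramidase of the epidermis (44.1 ± 5.42), had no summit within 5 kb. Nor had Ugcg (8.74), which makes glucosylceramide, and Abca12 (9.98), the lipid transporter of lamellar granules. The lipid-barrier genes of the acylceramide and very long chain fatty acid list were occupied in 3 of 19 expressed cases (15.8%, against 20.2% of all expressed genes). These were Hsd17b12, a reductase of chain elongation (72.2 ± 4.45 CPM per kb, summit 112 bases upstream), Acsl1, an acyl-CoA synthetase (27.9 ± 2.69, 304 upstream), and Slc27a4, the fatty acid transport protein FATP4 (17.1 ± 2.19, 79 upstream). The elongases Elovl4 (112 ± 11.0) and Elovl1 (55.0 ± 3.97), the reductase Tecr (158 ± 20.04), and the acylceramide genes Cyp4f39, Pnpla1, Abhd5 and Alox12b had no summit within 5 kb.

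Cholesterol genes carried their summits at the promoter. Of 24 expressed members 8 were occupied (33.3%, against 20.2% of all expressed genes), each within 500 bases of the start at folds of 3.69 to 5.34. The highest were Fdps, farnesyl diphosphate synthase, at 156, 171 and 159 CPM (131 ± 6.28 CPM per kb, SD, n = 3), and Hmgcs1, the synthase before HMG-CoA reductase, at 346, 353 and 380 CPM (112 ± 5.67). The highest without an assigned summit was Mvk, described above, at 32.4 ± 3.21 CPM per kb. The median of the cholesterol list, 19.9 CPM per kb, fell in expression class 8, where 27.8% of genes were occupied. In fatty acid and triglyceride synthesis 4 of 21 expressed genes were occupied (19.0%), namely Acly, which makes cytosolic acetyl-CoA (86.6 ± 8.04 CPM per kb), Dgat2 (65.0 ± 9.08) and Dgat1 (6.28 ± 0.312), which complete triglycerides, and Acsl3 (10.4 ± 0.636); Dgat1 and Acsl3 were named after their values were seen. Scd2 (102 ± 5.38) and Acsl5 (64.1 ± 6.23) were the highest without a summit.

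Basal keratinocyte genes were occupied in 11 of 20 cases (55.0%, against 20.2% of all expressed genes). Of the 9 with both marks at the start 7 were occupied, against 27.7% of all such genes. The occupied members included the keratins Krt5, Krt14 and Krt15, the integrin genes Itga3, Itgb1 and Itgb4, the laminin gene Lamb3, and Cd151, Cdh3 and Jag2. Those beyond Krt5 and Krt14 were named after their values were seen. Krt15, a basal type I keratin, had its summit 145 bases upstream at a fold of 3.21 and stood at 2850, 2669 and 2621 CPM. The highest members without a summit were Col17a1, the hemidesmosome collagen (134 ± 24.4 CPM per kb, SD, n = 3), and Sdc1, syndecan 1 (127 ± 5.20). Itga6, whose product was used for the sort, was not occupied either.

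Suprabasal and cornified envelope genes were occupied in 9 of 32 expressed cases (28.1%, against 20.2% of all expressed genes). Only 6 of the 32 had both marks at the start, 5 of them occupied. The occupied members had a median of 113 CPM per kb and the others 19.4. Krt1 and Krtdap led them, and Krt10 and Calm4 (1967 ± 344 CPM per kb, SD, n = 3) led those without a summit. In the desmosome and tight junction list 8 of 29 expressed genes were occupied (27.6%). The median of that list, 37.7 CPM per kb, fell in class 9 as well, with 27.3%. Perp, a desmosomal membrane protein, held a pair of summits and stood at 2584, 3137 and 2778 CPM, and Dsc3, the desmocollin of the basal layer, stood at 1149, 1204 and 1112 CPM with a fold of 5.04. Dsp, desmoplakin (583 ± 64.7 CPM per kb), and Pkp1, plakophilin 1 (529 ± 62.9), had none.

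Of the transcription regulators of the epidermis only 5 of 37 expressed genes were occupied (13.5%), a share below the 20.2% of all expressed genes. They included Cebpa, a factor of keratinocyte differentiation (summit 2 bases upstream, 270, 338 and 284 CPM), and Ovol1 (280 bases upstream, 70.4, 69.3 and 69.95 CPM), Vdr and Elf3, of which the last 3 were named after their values were seen. Rxra, a nuclear receptor gene without a summit, stood at 76.7 ± 11.4 CPM per kb (SD, n = 3). The share was larger with distal summits: 14 of the 37 were the nearest gene of a summit within 50 kb (37.8%), against 26.4% of all expressed genes.

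AP-1 and immediate early genes, which respond within minutes to growth signals and to handling of cells, had the largest occupied share of the lists over expressed members. Of 17 expressed members 12 were occupied (70.6%), 8 of the 12 with both marks at the start were (66.7%, below the 83.3% of suprabasal and 77.8% of basal genes of that kind), and 16 of 17 were the nearest gene of a summit within 50 kb. Fos stood at 334, 296 and 158 CPM with a summit 151 bases upstream, and Jun at 361, 327 and 185 CPM with one 53 bases upstream. Both were lowest in replicate 3, as was the sum of the list, at 1936, 1702 and 1093 CPM of the library totals. The sums in the libraries labelled Klf5-/- overlapped these, at 1728, 1621 and 1050 CPM. Ier2, at 124, 134 and 84.1 CPM, and Mafg, at 82.8, 65.9 and 67.3 CPM, were the highest without an assigned summit, and Mafg started 136 bases from one assigned to Gm17586.

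Genes used by all cells were occupied in shares from 19.5 to 30.3%, against 20.2% of all expressed genes. By median level the cell cycle list (32.6 CPM per kb) fell in expression class 9, where 27.3% of genes were occupied. The ribosomal (608) and oxidative phosphorylation lists (83.1) fell in class 10, with 33.6%, and both had shares below that. Cell cycle genes were occupied in 10 of 33 cases (30.3%), led by Cdk4, the cyclin D kinase (131 ± 5.87 CPM per kb, SD, n = 3), and Pcna, the replication clamp (120 ± 8.86). Cytosolic ribosomal protein genes were occupied in 20 of 70 cases (28.6%), with medians of 598 CPM per kb for the occupied genes and 631 for the others. Rps26 and Rps12 were the highest with a summit, at 2636 ± 381 and 2292 ± 326 CPM per kb, and Rplp1 (2760 ± 271) and Rps27 (2166 ± 401) the highest without. Oxidative phosphorylation genes were occupied in 8 of 41 cases (19.5%), with medians of 66.0 and 85.7 CPM per kb. In the ribosomal and oxidative phosphorylation lists the occupied genes were not the higher ones.

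Markers of other cell types were seldom occupied, but these lists are small beside the 20.2% of all expressed genes, and 6.38% in the lowest expression class. No expressed immune (0 of 8), neuronal and Schwann (0 of 5) or erythroid marker (0 of 6) had a summit within 5 kb. Among fibroblast markers 1 of 9 did, Col1a1 at 3.83, 1.73 and 1.11 CPM, and among melanocyte markers 1 of 10, the pigment enzyme gene Dct at 191, 185 and 185 CPM. No expressed immune, neuronal and Schwann, erythroid or melanocyte marker had an H3K27ac peak at the start. Myod1 of the muscle list, under the expression limit, had a summit 2639 bases downstream of its start. In these bulk samples, fewer cells of a type and less RNA per cell cannot be told apart. Dcn, a fibroblast proteoglycan, was the highest fibroblast marker, at 365, 436 and 536 CPM, and had no summit.

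The comparison of genotypes placed few genes past the threshold, and none of them was occupied. Of 15092 genes tested with edgeR's quasi-likelihood test, 13 passed an adjusted p of 0.05 (0.0861%), 5 higher (0.0331%) and 8 lower (0.0530%) in the libraries labelled Klf5-/-. Of the 2713 occupied genes tested none passed. At an unadjusted p under 0.05, 69 occupied genes were higher (2.54%) and 206 lower (7.59%), against 3.78% and 6.24% of all genes tested, 10.0% in either direction. The median log2 fold change of the occupied genes was -0.01 and that of all genes 0.01, and 51.5% of the occupied genes lay below 0 against 47.3% of all. The nearest called genes were 4631405J19Rik and Fam25c, both lower in the libraries labelled Klf5-/-, with summits 7945 and 8309 bases from their starts; they were named after their values were seen.

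The count depended on the low-count filter, the tool and 1 library. Without the filter, edgeR called 237 genes (1.02%, with 0.203% higher and 0.821% lower). Among them were 41 occupied genes, 1.38% of the 2967 tested (0.101% higher and 1.28% lower). DESeq2, run without that filter, called 447 genes, among them 74 occupied, 8 higher and 66 lower, which is 2.67% of the 2768 occupied genes with an adjusted p against 2.72% of all 16412 (0.749% higher and 1.97% lower). Without replicate 3 of the group labelled Klf5-/-, the library that resembled the Klf5+/- group, edgeR called 513 genes, among them 83 occupied, 12 higher and 71 lower, or 3.04% of occupied genes against 3.31% of all (0.839% higher and 2.47% lower). In both of these, the share of occupied genes called was near that of all genes. Leaving out any of the other 5 libraries gave 0 to 5 calls in all and 0 or 1 among occupied genes. Replicate 3 was set apart by its likeness to the other group in these same data, so its removal favours a difference. Calls and adjusted p-values without it, here and below, describe this dependence and do not stand as evidence of a change.

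A few occupied genes, chosen after their values were seen, show the pattern behind these counts. On the scale of CPM of the library totals, Krt1 was at 36937, 37858 and 30612 in the Klf5+/- libraries and at 18398, 16116 and 25500 in those labelled Klf5-/-, without overlap. By edgeR that is a log2 difference of -0.87 with an SE of 0.19 (adjusted p = 0.119, and 0.00378 without replicate 3). Dgat2 was at 147, 164 and 127 against 74.3, 73.3 and 101.4 CPM, without overlap, with a log2 fold change of -0.88 (SE 0.16, edgeR adjusted p = 0.087, and 0.000857 without replicate 3). In Krt1 and Dgat2 the third library labelled Klf5-/- was the one nearest to the heterozygotes. Klf3 was at 90.1, 80.8 and 73.8 against 62.5, 65.2 and 56.8 CPM, also without overlap, with a log2 fold change of -0.47 (SE 0.09, edgeR adjusted p = 0.087, and 0.043 without replicate 3). Cers3 was at 71.4, 76.1 and 80.8 against 56.6, 56.4 and 71.9 CPM, the third value inside the heterozygous range, with a log2 fold change of -0.37 (SE 0.12, edgeR adjusted p = 0.293, and 0.017 without replicate 3).

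The first enzyme of ceramide synthesis and the basal keratins gave smaller differences. Sptlc1 was at 93.5, 89.2 and 77.6 against 81.6, 82.1 and 82.2 CPM of the library totals, a log2 difference of -0.15 by edgeR with an SE of 0.09 (adjusted p = 0.693). Krt5 was at 14097, 13802 and 11693 against 17466, 16565 and 13129 CPM, a log2 difference of 0.18 by edgeR with an SE of 0.14 (adjusted p = 0.781). In both genes the groups overlapped.

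Among the 465 list members tested with edgeR only Krt2, a keratin of the upper epidermis without a KLF5 summit, passed, and it was higher in the libraries labelled Klf5-/-; it was named after its value was seen. With all libraries edgeR called none of the 37 sphingolipid and 21 acylceramide genes tested. Without replicate 3 of the group labelled Klf5-/-, edgeR called 3.31% of all genes. It then called 8 of 37 sphingolipid genes and 10 of 21 acylceramide genes, all lower, of which Cers3 and Acsl1 were occupied. In the same fit it called 16 of 33 suprabasal genes, 11 lower and 5 higher; of these Krt1, Asprv1, Casp14 and Spink5 were occupied and lower, and Sprr1a was occupied and higher. DESeq2 on all libraries, with 2.72% of all genes called, called 5 of 37 sphingolipid genes, all lower and none occupied, and 7 of 22 acylceramide genes, all lower, of which Acsl1 was occupied. It called none of the 20 basal keratinocyte genes, and edgeR without replicate 3 called none either, although 11 of the 20 members of that list were occupied.

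Sums of several lists, of cell layers, cell types and functions alike, differed between the genotype labels without overlap. The share of single genes that separated in this way was not counted, so these separations, and those of the single genes above, stand without a baseline. The suprabasal and cornified envelope list, 34 members with only Lce3a at 0 in all 6 libraries, summed to 63776 to 77697 CPM of the library totals in the Klf5+/- libraries and 38087 to 55032 in those labelled Klf5-/-. The fibroblast list, 14 members with Twist2 at 0 in the Klf5+/- libraries, summed to 680 to 763 and 895 to 1095 CPM, and the melanocyte list, 10 members, to 439 to 495 and 531 to 560 CPM. The neuronal and Schwann list, 12 members, summed to 70.1 to 82.9 and 54.2 to 63.9 CPM. The cell cycle list, 33 members, summed to 4863 to 5332 and 5458 to 6236 CPM. The desmosome and tight junction list (18445 to 21228 and 17512 to 17845 CPM) did not overlap either. Nor did the sphingolipid (2779 to 2795 and 2647 to 2675) and acylceramide lists (1811 to 1970 and 1448 to 1587). The endothelial list, 7 members, summed to only 0.883 to 2.05 and 2.09 to 3.58 CPM. The basal list (24553 to 29808 and 27238 to 33179 CPM), the immune list (27.9 to 56.3 and 37.6 to 64.2) and the erythroid list (16.5 to 1103 and 273 to 2719) overlapped between the groups. The lists not named here overlapped too. The part of these sums in the differences between genotypes was not tested. The sums also depend on the scaling to library totals. With that scaling the median log2 fold change of all genes tested was 0.077, against 0.012 with the scaling of the main edgeR fit. Whether narrow gaps, such as that of the cell cycle list, remain under the latter scaling was not tested.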

How the data were processed

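Gene counts came from 3 Klf5+/- and 3 libraries labelled Klf5-/-, and peaks from 1 KLF5, 1 H3K27ac and 1 ATAC-seq sample. The authors deposited raw counts per Ensembl gene, for which the submitters' processing notes name STAR 2.6.0b, HTSeq and the build mm10 (GRCm38); no source used here gives the strand setting. Reads that named no gene, 13.5 to 16.9% of each library, stayed out. The peak lists, 1 per sample, come from MACS2 per the submitters' processing notes, with reads aligned by Bowtie 1.0.1 or Bowtie2 2.2.3. The fold enrichment of a peak and its −log10 p and q are the authors' deposited values. No source used here gives the control or the threshold of the peak calls, and the ChIP input or IgG reads were not analysed here. Gene starts and exon lengths were read from a deposited table of another experiment of the series, whose counts and RPKM values, computed by the authors, entered no result.

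Summits were assigned to the nearest gene start, with 9 ties given to the first gene identifier. CPM was TMM-scaled over the Klf5+/- libraries and divided by exon length for CPM per kb; between genotypes, CPM of library totals was used. Biotypes and promoters are RefSeq's (GRCm38.p6; 29786 genes matched, and 2137 occupied genes had a promoter window). Changes were tested with edgeR 4.0.16 (quasi-likelihood, filterByExpr, R 4.3.3; Benjamini-Hochberg over all genes tested, threshold 0.05), and DESeq2 1.42.0, library totals, no filter, a replicate block and leaving out each library were alternatives. The windows, the assignment, the minimum CPM and the peak threshold were varied too. Only the main edgeR fit was tested on simulated data, and the alternatives were not. Nearest starts were checked with bedtools 2.31.1. Overlaps and the rest used Python 3.11.15 with pandas 2.3.3, scipy 1.17.1 and matplotlib 3.10.9.

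The peaks, gene lists and comparisons were chosen with earlier results of these data known. Genes named were those with the 10 strongest summits, the 10 with most summits, the 10 highest with and 10 highest without a summit, 5 uncounted occupied genes, and per list the 2 highest with and 2 highest without a summit, together with KLF, SP, sphingolipid and acylceramide genes; others are marked as named after their values were seen. Some genes the rule names are not reported here. Counting intervals and limits cover counting error only, since reads carry no molecular identifiers.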

Additional observations from a re-analysis of the deposited data

How the results depend on the processing

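The share of occupied genes at 1 CPM was 89.7% with a window of 1 kb, 77.9% with 10 kb, 83.4% for peaks with −log10 q of at least 10 (539 occupied genes), 74.0% with every start within 5 kb, 87.8% with the nearest start among counted genes, and 94.4% for protein-coding genes. For genes without a summit it was 28.4% (1 kb), 31.6% (strong peaks), 27.2% (every start) and 51.3% (protein-coding). The log2 ratio of median CPM was 1.15, 0.99 and 0.97 for strong peaks, every start and protein-coding genes, and 2.14 with a minimum of 0.1 CPM. Per kb it was 0.96 with 10 kb, 1.10 (strong peaks), 0.91 (every start), 0.91 (protein-coding) and 1.76 (0.1 CPM); with no minimum it had no value, since the median without a summit was 0. Leaving out a Klf5+/- library gave 1.09 for CPM and 0.93 to 0.94 per kb. With 1000 bases to either side of the start, the ratio among genes with ATAC peaks was 0.74. Summits inside ATAC peaks came to 86.3% for any overlap, 87.8% for strong KLF5 peaks and 65.4% for strong ATAC peaks, and inside H3K27ac peaks to 74.0, 87.6 and 45.1%.

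Genes changed between genotypes numbered 447 by DESeq2 (run without the low-count filter), 6 with library totals, 237 without a filter, 42 with the replicate block, and 0 to 513 without 1 library. Occupied genes among them numbered 74, 0, 41 and 3, 0 to 83 without 1 library, and 2 with a window of 10 kb. Their median log2 fold change was 0.059 with library totals and -0.017 to -0.0030 without 1 library. No pairing by replicate number was clear: same-numbered deviations correlated at 0.03, -0.10 and 0.18, and those of unlike number at -0.20 to 0.20. In both groups replicate 3 had the lowest AP-1 sum (1093 and 1050 CPM of the library totals) and the highest erythroid sum (1103 and 2719). A tie between the replicate 3 libraries was not tested. The cause of the shifts between settings was not tested. There is 1 KLF5 sample, so its replicate error is unknown.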
